A study of Mus musculus with 12 samples.

Results

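The RNA of 7 secreted Wnt antagonists (*Wif1*, *Dkk1*, *Dkk2*, *Dkk4*, *Sfrp1*, *Sfrp2* and *Sfrp4*) was examined here. These were chosen by gene symbol and function among the 770 genes of the nCounter Mouse PanCancer pathways panel, on which color-coded probes count RNA molecules without amplification, and all 7 were found. Canonical Wnt signaling starts when a secreted Wnt ligand binds a Frizzled receptor and an Lrp5 or Lrp6 co-receptor, after which beta-catenin is no longer degraded and activates target genes together with TCF/LEF factors. Secreted antagonists act outside the cell, upstream of beta-catenin. *Wif1* and the *Sfrp* proteins bind Wnt ligands, and the Dickkopf (*Dkk*) proteins bind the co-receptors. *Dkk1*, *Dkk4*, *Wif1* and *Axin2* are known as genes that beta-catenin can itself induce, and human *SFRP1* is known as a marker of SHH medulloblastoma, as *WIF1* and *DKK2* are of WNT medulloblastoma.

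The 12 samples formed 3 groups. The first held 4 control eyes of E18.5 embryos that carry the floxed alleles *Ctnnb1(ex3)* Fl/+ and *SmoM2* Fl/+ without a Cre driver. The second held 5 *RBS* lesions, which were eyes of E18.5 *Rax-creERT2::Ctnnb1(ex3)Fl/+SmoM2 Fl/+* embryos whose dams received tamoxifen at E8.5. In these, recombination removes exon 3 of *Ctnnb1*, which stabilizes beta-catenin, and switches on *SmoM2*, an active form of Smo that drives Shh signaling. Both alleles are thus present in both groups of eyes, and recombination follows the *Rax* promoter, which is active in early eye field and retinal precursors, so Cre is limited to cells in which that promoter has been active. Whether the control embryos were exposed to tamoxifen is not given in the sources used here. The third group held 3 Shh-MBs, which are hindbrain tumors taken from *hGFAP-cre::SmoM2* Fl/+ animals at an age of 14 days. There, the human *GFAP* promoter drives Cre in neural precursors, and *Ctnnb1* is not altered. Each sample came from a separate animal, with 1 eye per mouse, and a comparison of eyes with Shh-MBs is also one between tissues and ages.

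Values are given as normalized signal, a linear scale on which every sample has been scaled by 1 factor. In each sample, the genes without signal above background share 1 lowest value between 1 and 1.64, and values at it are marked below as lowest values. Depth was estimated as the total signal divided by the step between neighbouring low values, and was 589999 to 716967 steps in control eyes, 335351 to 638110 in the lesions and 541188 to 707044 in the tumors. Whole counts were not recovered from the signal, so these steps are not known to be counts. If 1 step is about 1 count, a value under 20 rests on few counts. Of the 84 values of the 7 genes, 33 were under 20 and 3 were lowest values. *Sfrp1* and *Sfrp2* were at or above 20 in every sample, and *Dkk4* was under 20 in every sample.

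The tissues were set against marker genes. Retinal progenitor genes on the panel (*Fgf15*, *Hes5*, *Hes1* and *Ccnd1*) summed to a signal of 15039 to 20661 in control eyes, 3228 to 4689 in the lesions and 2652 to 2987 in Shh-MBs. *Rax* itself is not on the panel. The sum of 5 neuron markers was 555 to 722 in control eyes, 2224 to 2967 in the lesions and 352 to 551 in Shh-MBs. This sum is mostly *Mapt* (mean 615 in control eyes and 306 in Shh-MBs), while *Grin1*, *Grin2b* and *Cacna1e* were higher in Shh-MBs than in control eyes. The sum of 9 mesenchyme markers, the collagen genes among them, was 26357 to 59349.9, 21208 to 38369 and 1748 to 2409.6 in the same order, and that of 3 endothelium markers was 1789 to 2259, 695 to 988 and 129 to 235. The lower sum in *RBS* lesions than in the controls is that of *Kdr* (mean 1864 against 664), since *Flt1* and *Angpt2* did not pass there (log2 differences 0.12 and 0.22). Markers of surface epithelium (8 genes) summed to 343 to 681, 629 to 1139 and 21.0 to 26.3, with *Calml3* and *Itga2* at the lowest value in every Shh-MB. Blood and immune markers (5 genes) summed to 84.2 to 129.5, 169 to 228 and 112 to 229, and *Il2rb* was at the lowest value in every *RBS* lesion and every Shh-MB. Granule neuron precursor and Shh target markers (6 genes, *Sfrp1* among them) summed to 3322 to 4301, 3346 to 4257 and 11238 to 13880. Such sums follow their most abundant genes, and in bulk RNA fewer cells of a type and less RNA per cell cannot be told apart.

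Promoter sequence from RefSeq (build GRCm38.p6) was available for 4 of the 7 genes, *Wif1*, *Dkk1*, *Dkk2* and *Sfrp2*. The 250 bases before the annotated start are shown for *Wif1*, the antagonist that rose in *RBS* lesions against control eyes, and for both Dickkopf genes with a window, *Dkk1* and *Dkk2*. Capitals mark matches, on either strand, to the TCF/LEF word CTTTGAT, its variant CTTTGAA, the word CTTTGTT or its variant CTTTGTA, to the GLI word GACCACCCA (GLI factors are the transcription factors of Shh signaling) or to the TATA box word TATAAA. The windows are *Wif1* at chr10:121033754-121034003 on the plus strand, *Dkk1* at chr19:30549497-30549746 on the minus strand and *Dkk2* at chr3:132085042-132085291 on the plus strand.
Wif1: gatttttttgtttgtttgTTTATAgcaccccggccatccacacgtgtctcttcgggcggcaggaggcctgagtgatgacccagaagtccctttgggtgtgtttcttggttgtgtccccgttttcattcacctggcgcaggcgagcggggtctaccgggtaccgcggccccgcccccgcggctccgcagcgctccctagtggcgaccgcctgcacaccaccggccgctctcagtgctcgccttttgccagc
Dkk1: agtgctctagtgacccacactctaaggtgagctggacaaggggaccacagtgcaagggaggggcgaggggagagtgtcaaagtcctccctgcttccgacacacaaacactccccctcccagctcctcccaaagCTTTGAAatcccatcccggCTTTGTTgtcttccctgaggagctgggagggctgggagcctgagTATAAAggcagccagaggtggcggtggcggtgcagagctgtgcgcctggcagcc
Dkk2: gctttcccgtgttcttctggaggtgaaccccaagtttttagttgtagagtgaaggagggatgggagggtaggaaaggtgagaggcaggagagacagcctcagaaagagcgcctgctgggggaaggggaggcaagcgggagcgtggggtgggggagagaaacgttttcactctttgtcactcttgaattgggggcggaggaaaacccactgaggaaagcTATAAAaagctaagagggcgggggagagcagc

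The *Dkk1* window held 2 TCF/LEF words, CTTTGAA at 117 to 111 and CTTTGTT at 98 to 92 bases before the start, and a TATA word at 54 to 49 bases before it. *Dkk2* held a TATA word at 32 to 27 bases before the start. *Wif1* held the TATA word in reverse (TTTATA) at 232 to 227 bases before the start. In the *Sfrp2* window (chr3:83766071-83766320, plus strand) none of these words was found, and the GLI word was in none of the 4 windows. Among 32851 mouse promoters of the same length, 14.8% held a TCF/LEF word, 0.225% the GLI word and 12.4% the TATA word. The matches describe these letters and were not tested for binding.

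**Figure D1:**
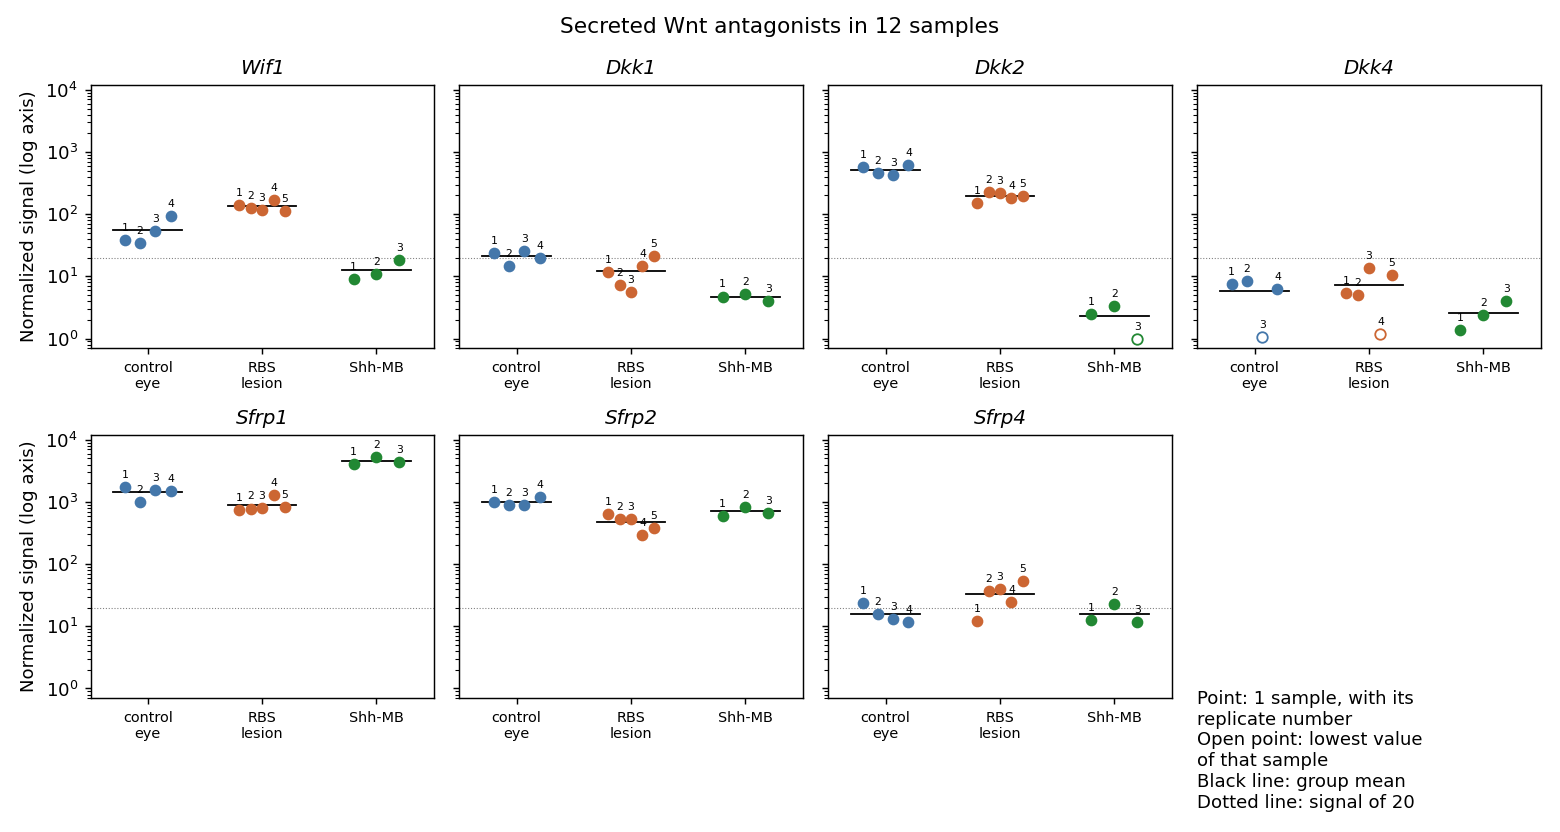
Normalized signal (log axis) of each antagonist in control eyes (blue), *RBS* lesions (orange) and Shh-MBs (green), 1 point per sample with its replicate number, a black line for the group mean, and open points for lowest values. *Wif1* is highest in *RBS* lesions (113 to 171), *Dkk2* falls from 419.9 to 611 in control eyes to at most 3.35 in Shh-MBs, and *Sfrp1* is highest in Shh-MBs (4031 to 5238).

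*RBS* lesions were first compared with control eyes, a comparison of eyes with and without recombined *Ctnnb1* and *SmoM2*. Of the 7 antagonists, 4 passed the test (limma, two-sided, adjusted *p* under 0.05 over all 770 genes), with *Wif1* higher and *Dkk2*, *Sfrp2* and *Sfrp1* lower in *RBS* lesions. Of all genes, 51.2% passed, 33.0% as higher and 18.2% as lower, so the share of antagonists that passed was near that of the panel. The median log2 difference was -0.69 over the 7 antagonists and 0.17 over all genes, and with values under 20 set to 20 these were -0.14 and 0.02. The groups did not overlap for *Wif1*, *Dkk2* and *Sfrp2*, where 43.4% of all genes showed no overlap.

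*RBS* lesions were then set against Shh-MBs, tumors with the same *SmoM2* allele but without the *Ctnnb1* change. Again 4 antagonists passed, with *Wif1*, *Dkk2* and *Dkk1* higher and *Sfrp1* lower in *RBS* lesions, and the groups did not overlap for these 4. Of all genes, 60.8% passed, 48.1% as higher and 12.7% as lower, and 59.9% showed no overlap. The median log2 difference was 0.97 over the antagonists, which is that of the weak gene *Dkk4*, and 0.53 over all genes. It was 0.13 against -0.32 with median centring, and it was not above the panel at -0.12 against -0.10 after quantile normalization or 0.02 against 0.24 with values under 20 set to 20.

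In Shh-MBs against control eyes, 5 antagonists passed, with *Sfrp1* higher and *Wif1*, *Dkk1*, *Dkk2* and *Sfrp2* lower in Shh-MBs, again without overlap. Of all genes, 41.0% passed, 9.61% as higher and 31.4% as lower, and 48.2% showed no overlap. The median log2 difference was -0.78 over the antagonists, again that of *Dkk4*, and -0.22 over all genes. It was -0.11 against 0.44 with median centring, -0.30 against 0.17 after quantile normalization and -0.16 against -0.08 with values under 20 set to 20. The 3 comparisons share samples with each other and are not independent.

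**Figure D2:**
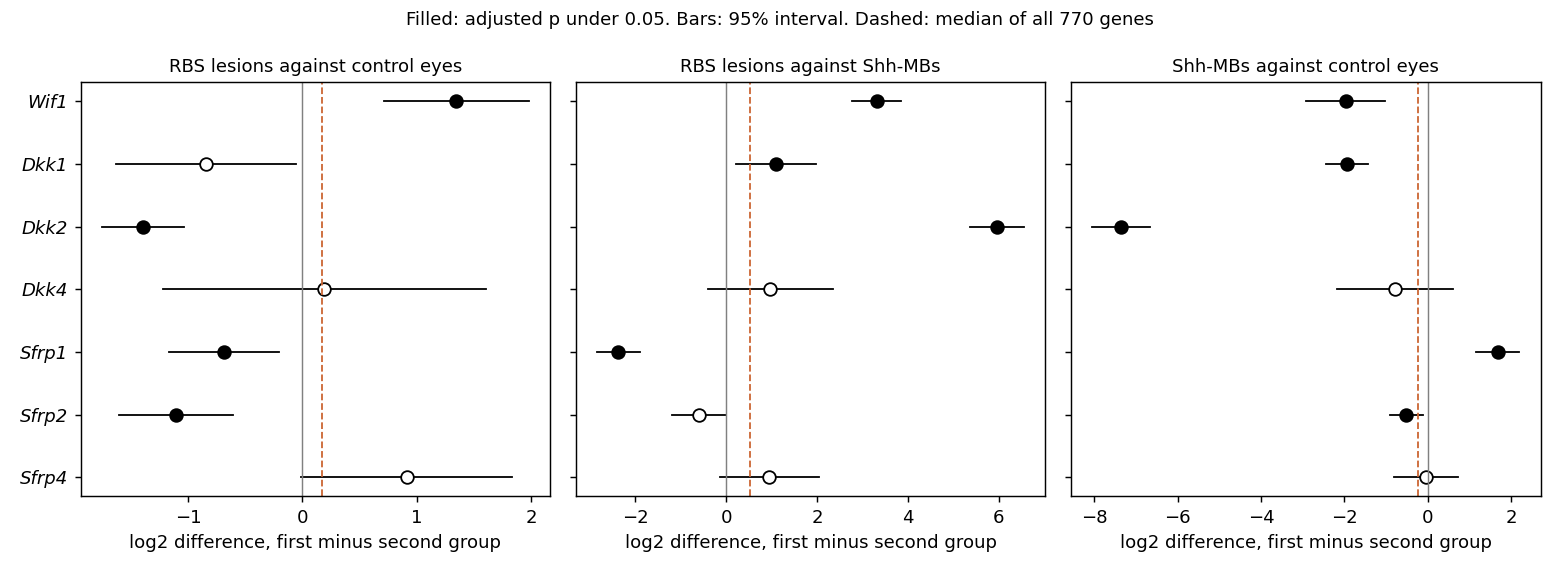
Log2 difference of each antagonist (first group minus second) with its 95% interval in the 3 comparisons, filled where the adjusted *p* was under 0.05, with the median of all 770 genes as a dashed line. *Dkk4* and *Sfrp4* are open in all 3 comparisons, and *Dkk2* has the widest range, from -7.36 to 5.96.

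*Wif1*, the Wnt inhibitory factor that binds ligands directly, was the antagonist that rose in *RBS* lesions against control eyes. Its signal was 38.1, 34.8, 54.5 and 93.8 in the control eyes, 142, 125, 114.96, 171 and 113 in the *RBS* lesions, and 9.22, 10.8 and 18.4 in the Shh-MBs. Each *RBS* lesion was above each control eye, and each control eye was above each Shh-MB. Group means were 55.3 ± 27.1 (SD, *n* = 4), 133 ± 24.1 (SD, *n* = 5) and 12.8 ± 4.92 (SD, *n* = 3). Relative to control eyes, *Wif1* was 2.54-fold higher in *RBS* lesions (log2 difference 1.35, 95% interval 0.71 to 1.98, adjusted *p* = 0.00331, limma). It was 9.96-fold higher than in Shh-MBs (log2 difference 3.32, adjusted *p* = 1.15e-05, limma), and still 2.72 higher on the log2 scale with values under 20 set to 20. Shh-MBs were 3.92-fold below control eyes (log2 difference -1.97, adjusted *p* = 0.00709, limma), a difference that did not pass with quantile normalization (-0.78, adjusted *p* = 0.197, limma). Control eye 4 and *RBS* lesion 4 had the highest value of their group, and the coefficient of variation was 49.0% among control eyes and 18.1% among *RBS* lesions.

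*Dkk2*, a Dickkopf protein that binds Lrp6 and that is expressed in the mesenchyme around the developing eye, had the largest differences of the 7 genes. Its signal was 578, 462, 419.9 and 611 in control eyes, 153, 226, 222.5, 181 and 195 in *RBS* lesions, and 2.51, 3.35 and 1.0 in Shh-MBs, the last being a lowest value. The 3 groups did not overlap, and the value of every Shh-MB was under 20 and may rest on few counts. Means were 518 ± 91.5 (SD, *n* = 4), 196 ± 30.3 (SD, *n* = 5) and 2.29 ± 1.19 (SD, *n* = 3). *RBS* lesions were 2.63-fold below control eyes (log2 difference -1.40, standard error 0.158, adjusted *p* = 0.000114, limma). Against Shh-MBs, *RBS* lesions were higher by 5.96 on the log2 scale (adjusted *p* = 1.62e-06, limma), and Shh-MBs were lower than control eyes by a log2 difference of -7.36 (adjusted *p* = 7.09e-06, limma). With values under 20 set to 20 these differences were 3.27 and -4.68, and the direction was unchanged by any of the scalings tried.

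Mesenchyme markers were set beside *Dkk2*. Between *RBS* lesions and control eyes, 2 of 9 markers were lower (*Col1a1* and *Col1a2*) and 1 was higher (*Tnc*), beside 18.2% and 33.0% of all genes. The other 6 did not pass, and the summed signals overlapped. Under the 3 other scalings, 1 to 4 of these markers were lower and 1 was higher. Between Shh-MBs and control eyes, 7 of 9 were lower, where 31.4% of all genes were, and *Pdgfra* was higher. Over the 12 samples, the genes whose pattern was nearest to *Dkk2* were *Col1a2*, *Col1a1* and *Col2a1*, with root mean square differences of 0.583, 0.608 and 0.897 on the log2 scale after centring each gene (median over all genes 2.85). Each had its lowest mean in Shh-MBs. Between the eye groups *Col2a1* differed less than *Dkk2*, with means of 741 in control eyes and 613 in *RBS* lesions. Control eye 4 had both the highest mesenchyme sum and the highest *Dkk2* value. Within the *RBS* lesions, replicate 1 had the highest sum and the lowest *Dkk2* value, while the other 4 had the same order in both. The part of the mesenchyme in the *Dkk2* differences was not tested.

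**Figure D3:**
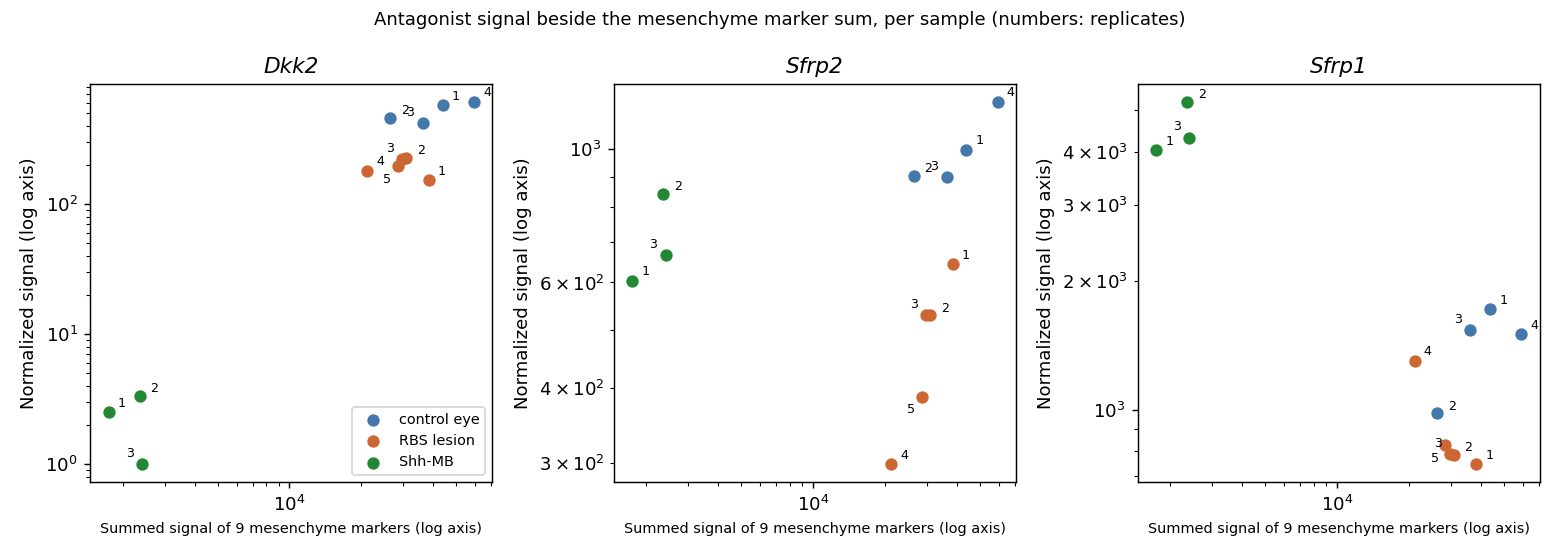
Signal of *Dkk2*, *Sfrp2* and *Sfrp1* against the summed signal of 9 mesenchyme markers, 1 point per sample with its replicate number, both axes logarithmic. Shh-MBs lie at sums of 1748 to 2409.6, apart from all eyes, with the lowest *Dkk2* and the highest *Sfrp1* values.

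*Dkk1*, the best known Lrp5/6 inhibitor and a gene with TCF/LEF words in the window shown, was a weak signal. It was 24.0, 14.6, 25.8 and 19.9 in control eyes, 11.95, 7.40, 5.66, 14.5 and 21.5 in *RBS* lesions, and 4.75, 5.22 and 4.03 in Shh-MBs. *RBS* lesion 5 lay within the control range, and the other 4 *RBS* lesions were below every control eye. Means were 21.1 ± 5.01 (SD, *n* = 4), 12.2 ± 6.29 (SD, *n* = 5) and 4.66 ± 0.602 (SD, *n* = 3). The difference between *RBS* lesions and control eyes was -0.84 on the log2 scale (95% interval -1.63 to -0.05) and did not pass (adjusted *p* = 0.0720, limma). Without *RBS* lesion 5 it was -1.07 (adjusted *p* = 0.0188, limma), and it passed as lower under all 3 other scalings, which were median centring (-1.02, adjusted *p* = 0.0366, limma), quantile normalization (-1.12, adjusted *p* = 0.0384, limma) and the total without the most abundant genes (-0.91, adjusted *p* = 0.0493, limma). It also passed with all 12 samples in 1 fit (-0.84, adjusted *p* = 0.0487, limma) and with the replicate block. The block gave the same -1.07 because it sets aside *RBS* lesion 5, whose number no control eye has. The difference thus passed in 6 of 19 alternatives, with the block and the fit without that lesion counted apart. With values under 20 set to 20 it was -0.14 (adjusted *p* = 0.237, limma), and it did not pass by the test of the methods with Benjamini-Hochberg adjustment (adjusted *p* = 0.107) or when any sample other than *RBS* lesion 5 was left out (adjusted *p* up to 0.167, limma).

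Against Shh-MBs, *Dkk1* was higher in *RBS* lesions by 1.09 (adjusted *p* = 0.0352, limma). This rests on the scaling, since centring samples on their medians gave 0.25 and quantile normalization gave -0.12. Setting values under 20 to 20 gave 0.02, which cannot test the difference, since every Shh-MB and 4 of 5 *RBS* lesions were under 20. The difference as deposited also did not pass without any one of Shh-MB 1, 2 or 3 or *RBS* lesions 1 or 4, at log2 differences of 1.11, 1.16, 1.01, 1.07 and 1.00. Shh-MBs were 3.83-fold below control eyes (log2 difference -1.94, standard error 0.208, adjusted *p* = 0.000379, limma). With values under 20 set to 20, which puts every Shh-MB at 20, this was -0.16 (adjusted *p* = 0.336, limma). Control eyes were the highest group and Shh-MBs the lowest, and the step from control eyes to *RBS* lesions did not pass in the values as deposited, with its interval below 0.

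*Dkk4*, a Dickkopf gene induced by Wnt signaling in epithelial appendages, was near background throughout. It was 7.57, 8.47, 1.06 and 6.34 in control eyes, 5.39, 4.97, 13.6, 1.21 and 10.5 in *RBS* lesions, and 1.39, 2.41 and 4.03 in Shh-MBs. The values of control eye 3 and *RBS* lesion 4 were lowest values, and the groups overlapped. None of its differences passed, at 0.19 (95% interval -1.22 to 1.61, adjusted *p* = 0.819, limma) for *RBS* lesions against control eyes, 0.97 (-0.40 to 2.34, adjusted *p* = 0.189, limma) against Shh-MBs, and -0.78 (-2.17 to 0.61, adjusted *p* = 0.342, limma) for Shh-MBs against control eyes. These intervals are wide and each reaches beyond a 2-fold difference. The difference to Shh-MBs passed without *RBS* lesion 4 (1.38, adjusted *p* = 0.0214, limma), and that of Shh-MBs to control eyes without control eye 3 (-1.29, adjusted *p* = 0.0191, limma).

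*Sfrp1*, a soluble protein with the ligand-binding domain of Frizzled receptors, was the antagonist that was higher in Shh-MBs. Its signal was 1717, 981, 1533 and 1499.9 in control eyes, 746, 785, 787, 1301 and 825 in *RBS* lesions, and 4031, 5238 and 4319.9 in Shh-MBs. Every Shh-MB was above every eye, while control eye 2 lay among the *RBS* lesions and *RBS* lesion 4 among the control eyes. Means were 1433 ± 316 (SD, *n* = 4), 889 ± 232 (SD, *n* = 5) and 4529.7 ± 629.9 (SD, *n* = 3). *RBS* lesions were 5.18-fold below Shh-MBs (log2 difference -2.37, standard error 0.202, adjusted *p* = 2.90e-05, limma), and Shh-MBs were 3.21-fold above control eyes (log2 difference 1.68, adjusted *p* = 0.000879, limma). Both kept their direction and passed with each of the 3 other scalings.

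The fall of *Sfrp1* in *RBS* lesions against control eyes was smaller, at 1.61-fold (log2 difference -0.69, 95% interval -1.17 to -0.21, adjusted *p* = 0.0231, limma). It did not pass when any one of *RBS* lesions 1, 2 or 3 or of control eyes 1, 3 or 4 was left out (-0.66 to -0.59, adjusted *p* up to 0.0663, limma). Of the 6 granule neuron precursor and Shh target markers, *Sfrp1* included, 1 was higher and 3 were lower in *RBS* lesions against control eyes, under each of the 4 scalings. *Ptch1*, the receptor gene that Shh signaling induces, was higher by 2.21, *Gli1*, a transcription factor gene induced by the same pathway, was lower at -0.67, and *Mycn* was lower at -0.87. *Mycn* was also the gene with the pattern nearest to *Sfrp1* over the 12 samples (root mean square difference 0.267), before *Socs3* (0.310) and *Dusp5* (0.397), against a median of 1.26 over all genes.

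*Sfrp2*, a relative of *Sfrp1*, had a signal of 998, 903, 899 and 1199 in control eyes, 644, 529, 530.1, 299 and 387 in *RBS* lesions, and 604, 843 and 666 in Shh-MBs. *RBS* lesions lay below every control eye, and *RBS* lesion 1 lay among the Shh-MBs. Means were 999.8 ± 140.3 (SD, *n* = 4), 478 ± 135 (SD, *n* = 5) and 704 ± 124 (SD, *n* = 3). The fall in *RBS* lesions against control eyes was 2.15-fold (log2 difference -1.10, 95% interval -1.60 to -0.61, adjusted *p* = 0.00266, limma) and passed with each scaling and without each sample in turn. *Sfrp2* and *Dkk2* had their lowest *RBS* values in different lesions, *Sfrp2* in replicate 4, which also had the lowest mesenchyme sum, and *Dkk2* in replicate 1.

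Against Shh-MBs, *Sfrp2* was lower in *RBS* lesions by a log2 difference of -0.59 that did not pass (95% interval -1.19 to 0.00, adjusted *p* = 0.0760, limma). It passed as lower without *RBS* lesion 1 (-0.71, adjusted *p* = 0.0373, limma) and under all 3 other scalings, at -1.44 (adjusted *p* = 0.00232, limma) with median centring, -1.07 (adjusted *p* = 0.0117, limma) after quantile normalization and -0.98 (adjusted *p* = 0.0138, limma) with the total without the most abundant genes. Trend and robust settings (adjusted *p* = 0.0458, limma) and all 12 samples in 1 fit (adjusted *p* = 0.0416, limma) called it too, which makes 6 of 19 alternatives. The other 13 did not call it, among them the fits without *RBS* lesion 4 (-0.44, adjusted *p* = 0.105, limma), without Shh-MB 2 (-0.46, adjusted *p* = 0.231, limma) and with the replicate block (-0.30, adjusted *p* = 0.267, limma). Shh-MBs were below control eyes by -0.51 (adjusted *p* = 0.0462, limma), but this was 0.16 with median centring and passed in 4 of 18 alternatives. Leaving out any sample other than Shh-MB 2 ended it, at differences between -0.56 and -0.41. The genes with the nearest pattern were the replication genes *Mcm4* (root mean square difference 0.258) and *Pole2* (0.264) and the mitotic phosphatase gene *Cdc25b* (0.281), against a median of 0.862 over all genes.

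*Sfrp4*, the third Frizzled-related gene, was 24.0, 15.6, 13.1 and 11.5 in control eyes, 11.95, 37.3, 40.04, 24.2 and 54.4 in *RBS* lesions, and 12.6, 23.0 and 11.7 in Shh-MBs. *RBS* lesions 2 to 5 were above every sample of the other groups, and *RBS* lesion 1, which had the lowest estimated depth of all samples, lay within the range of the other groups. Means were 16.1 ± 5.55 (SD, *n* = 4), 33.6 ± 16.2 (SD, *n* = 5) and 15.8 ± 6.31 (SD, *n* = 3). The difference to control eyes was 0.91 (95% interval -0.01 to 1.84, adjusted *p* = 0.0925, limma) and that to Shh-MBs 0.95 (-0.14 to 2.03, adjusted *p* = 0.114, limma), so neither passed. Without *RBS* lesion 1 both passed, at 1.23 (adjusted *p* = 0.00842, limma) and 1.26 (adjusted *p* = 0.0138, limma), though the difference to Shh-MBs was -0.50 with quantile normalization. Control eyes and Shh-MBs differed by -0.04 (95% interval -0.80 to 0.73, adjusted *p* = 0.939, limma). The genes with the nearest pattern were *Elk1* (root mean square difference 0.369), *Map3k12* (0.375) and *Apc* (0.426), against a median of 0.878 over all genes.

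**Figure D4:**
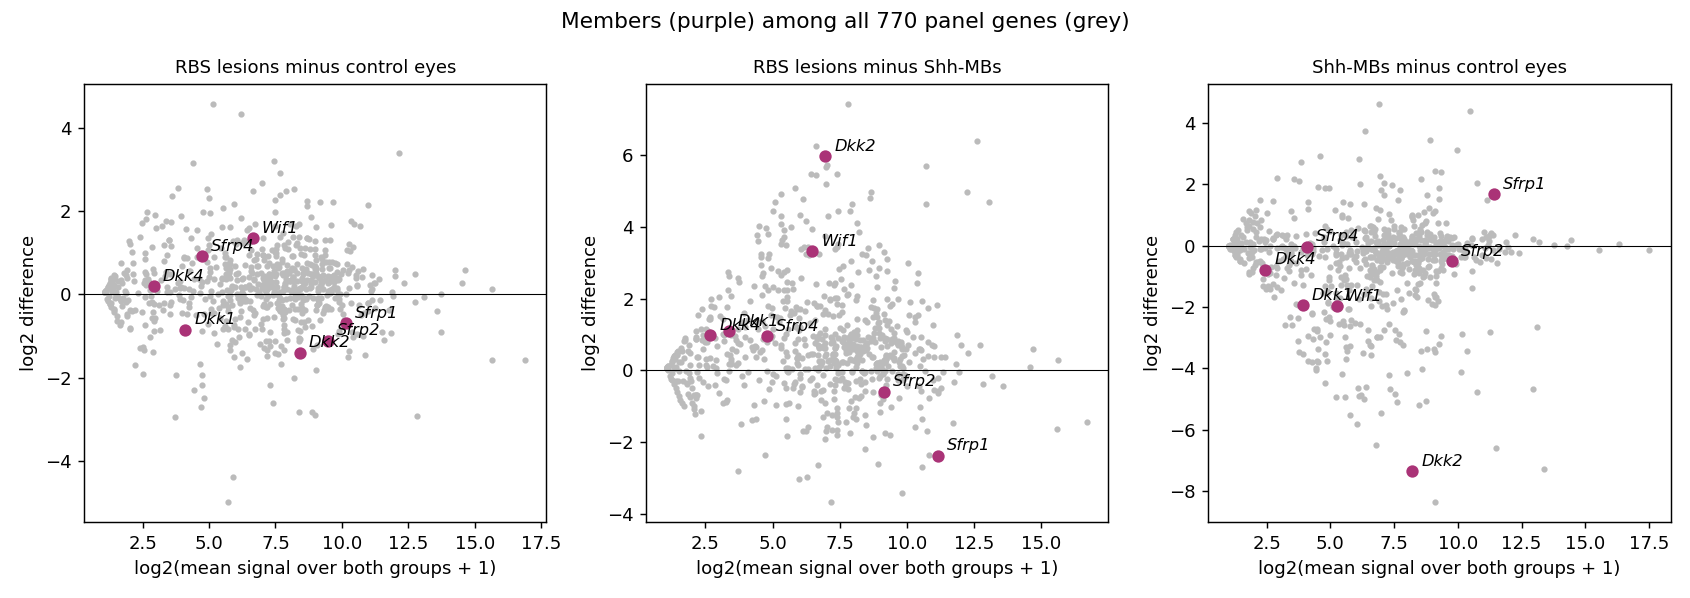
Log2 difference against mean signal, as log2 of the signal plus 1, for all 770 genes (grey) and the 7 antagonists (purple) in the 3 comparisons. *Dkk2* is near the edge of the panel in both comparisons with Shh-MBs (5.96 and -7.36), while the antagonists lie within the cloud of genes between *RBS* lesions and control eyes (-1.40 to 1.35).

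Within the family, *Wif1* and *Sfrp1* thus took opposite orders over the groups. *Wif1* was highest in *RBS* lesions and lowest in Shh-MBs, and *Sfrp1* was highest in Shh-MBs and lowest in *RBS* lesions. The genes nearest to *Wif1* in pattern were *Lepr* (root mean square difference 0.355), *Rac3* (0.470) and *Figf* (0.492), against a median of 1.28 over all genes. *RBS* lesion 4 had the highest *Wif1* and *Sfrp1* and the lowest *Sfrp2* value of its group, with the highest neuron (2967) and blood and immune (228) marker sums and the lowest mesenchyme sum (21208) among *RBS* lesions. Control eye 4 had the highest *Wif1*, *Dkk2* and *Sfrp2* and the lowest *Sfrp4* of its group, with the highest mesenchyme (59349.9), surface epithelium (681) and blood and immune (129.5) sums and the lowest neuron (555) and retinal progenitor (15039) sums. Its surface epithelium sum lay within the range of the *RBS* lesions (629 to 1139), and those of control eyes 1, 2 and 3, with lower *Wif1*, were 343, 361 and 418. Among the *RBS* lesions, the highest surface epithelium sum was that of replicate 5, which had the lowest *Wif1* value. The part of these marker differences in the antagonist values was not tested.

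*Sost*, which encodes the co-receptor inhibitor sclerostin, was the one further secreted Wnt modulator of 15 looked for that is on the panel. It was under 20 in every sample, at 13.5 ± 2.89 (SD, *n* = 5) in *RBS* lesions, 5.98 ± 4.58 (SD, *n* = 4) in control eyes and 6.90 ± 3.99 (SD, *n* = 3) in Shh-MBs. It was higher in *RBS* lesions than in the controls (log2 difference 1.30, adjusted *p* = 0.0367, limma) and in Shh-MBs (0.96, adjusted *p* = 0.0284, limma), with overlapping groups. Neither difference passed under the 3 other scalings, and that to Shh-MBs turned to -0.35 with quantile normalization.

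Genes that beta-catenin is known to induce were measured beside the antagonists. *Axin2*, a feedback inhibitor inside the cell, was 96.8 ± 7.99 (SD, *n* = 4) in control eyes, 186 ± 28.1 (SD, *n* = 5) in the lesions and 119.8 ± 9.44 (SD, *n* = 3) in Shh-MBs, and rose in *RBS* lesions against control eyes by 0.92 (adjusted *p* = 0.000292, limma) and against Shh-MBs by 0.62 (adjusted *p* = 0.00550, limma). The rise against control eyes was 0.74 to 0.85 and passed under the 3 other scalings, but the difference to Shh-MBs passed under none of them, and its sign turned with median centring (-0.23) and quantile normalization (-0.01). In Shh-MBs against control eyes, *Axin2* was higher by 0.31 and did not pass (adjusted *p* = 0.0638, limma). Under the 3 other scalings that difference was 0.62 to 0.97 and passed each time. *Lef1*, which encodes a partner of beta-catenin, had means of 39.0, 56.3 and 8.53 in the same order of groups, and was higher in *RBS* lesions than in Shh-MBs (2.66, adjusted *p* = 0.000301, limma, and 1.44 with values under 20 set to 20) but did not pass against control eyes (0.48, adjusted *p* = 0.0889, limma). *Nkd1*, a feedback gene acting on Dishevelled, had means of 71.4, 75.5 and 223 and was lower in *RBS* lesions than in Shh-MBs (-1.58, adjusted *p* = 0.000194, limma). *Rnf43*, a ligase that removes Frizzled receptors, was under 20 in every sample and passed in none of the comparisons.

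The ligands and receptors on which the antagonists act were counted against the whole panel. Of 15 Wnt ligands, 7 were higher and none was lower in *RBS* lesions against control eyes, where 51.2% of all genes passed and 33.0% as higher. The median log2 difference of the ligands was 0.73 against 0.17 over all genes, and 0 against 0.02 with values under 20 set to 20. *Wnt3* rose from 3.57 ± 3.03 (SD, *n* = 4), a level that may rest on few counts, to 33.4 ± 4.65 (SD, *n* = 5), and by 0.73 on the log2 scale with values under 20 set to 20. Against Shh-MBs, 10 ligands were higher in *RBS* lesions, where 48.1% of all genes were, and *Wnt16* was lower. The signal of *Wnt2b* averaged 110 ± 40.3 (SD, *n* = 5) in the lesions against 3.26 ± 1.99 (SD, *n* = 3) in the tumors, and its log2 difference of 4.76 was 2.37 with values under 20 set to 20. *Wnt16* was under 20 in every sample, at 1.92 ± 0.898 (SD, *n* = 5) in the lesions against 5.73 ± 2.38 (SD, *n* = 3) in the tumors, and had no difference left once such values were set to 20. With that setting, 6 ligands were higher against control eyes and 9 against Shh-MBs, and none was lower. In Shh-MBs against control eyes, 7 ligands were lower, as were 31.4% of all genes, and none was higher, and *Wnt3a* and *Wnt11* were at the lowest value in every Shh-MB.

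Of 6 Frizzled and co-receptor genes, *Fzd3*, *Fzd8* and *Fzd9* were higher in *RBS* lesions against both other groups. Of all genes, 33.0% were higher against control eyes and 48.1% against Shh-MBs. *Fzd2* and *Fzd7* were lower in *RBS* lesions than in Shh-MBs, as were 12.7% of all genes. Of 8 intracellular genes of the pathway, 6 were higher in *RBS* lesions against control eyes, *Ctnnb1* and *Apc* among them, and 6 against Shh-MBs, beside 33.0% and 48.1% of all genes. Medians of this list were 0.52 and 0.69 against 0.17 and 0.53 over all genes. Under the 3 other scalings, 5 to 7 ligands were higher and at most 1 was lower in *RBS* lesions against control eyes, and 9 or 10 were higher and 1 or 2 were lower against Shh-MBs. Of the intracellular genes, 4 to 6 were higher and at most 1 was lower against control eyes. They did not keep their direction against Shh-MBs, where 1 was higher and 3 were lower with median centring. In Shh-MBs against control eyes, 3 ligands were higher beside 7 lower ones with median centring. The log2 difference of *Fzd8* to control eyes, 1.16 as deposited, did not pass with median centring (0.98, adjusted *p* = 0.0732, limma) or quantile normalization (0.73, adjusted *p* = 0.159, limma), and *Fzd8* was under 20 in every eye and tumor. That of *Fzd9* to Shh-MBs, 1.66 as deposited, did not pass with median centring (0.82, adjusted *p* = 0.0537, limma) or quantile normalization (0.35, adjusted *p* = 0.265, limma). That of *Fzd3* to Shh-MBs, 1.35 as deposited, did not pass with median centring alone (0.50, adjusted *p* = 0.0716, limma).

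**Figure D5:**
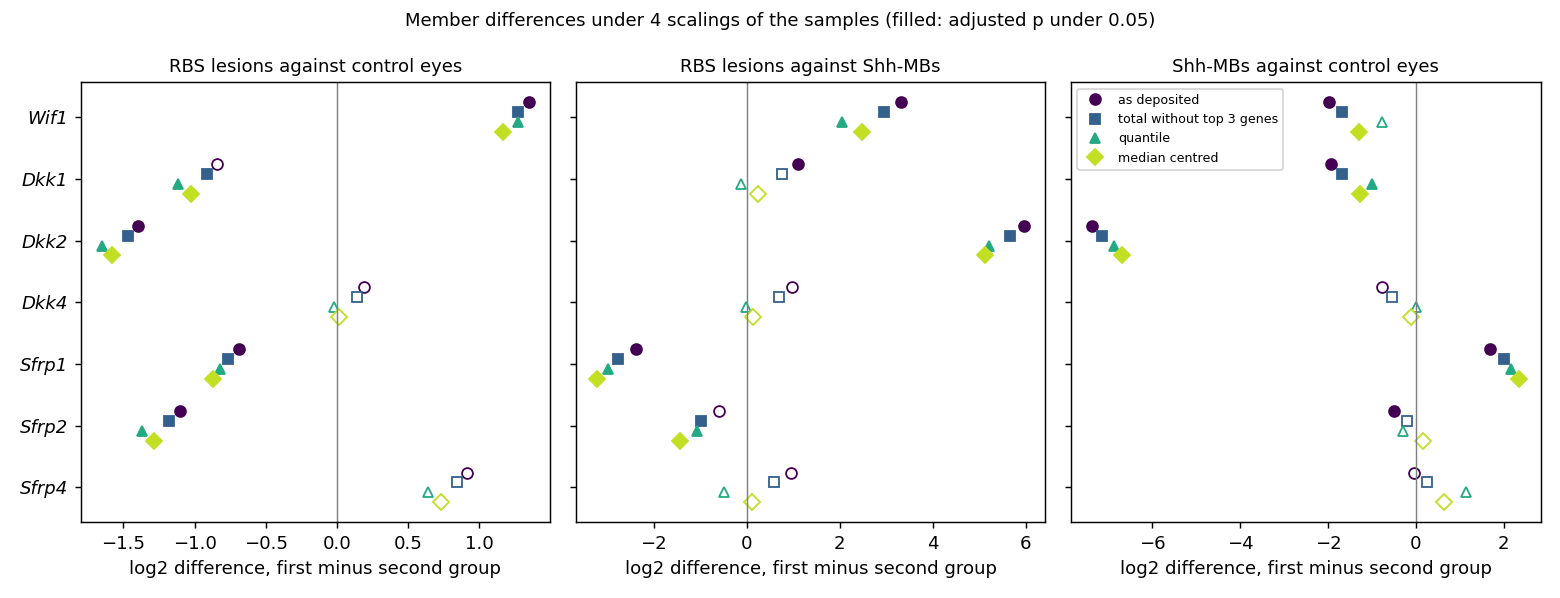
Log2 difference of each antagonist in the 3 comparisons with the values as deposited (circles), after scaling to totals that leave out the 3 most abundant genes (squares), with quantile normalization (triangles) and with median centring (diamonds), filled where the adjusted *p* was under 0.05. *Wif1*, *Dkk2* and *Sfrp1* keep their sign under all 4 scalings, and *Dkk1* (1.09 to -0.12 against Shh-MBs) and *Sfrp2* (-0.51 to 0.16 in Shh-MBs against control eyes) do not, nor do the weak *Dkk4* and *Sfrp4*.

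Some differences changed sign with the scaling. Between *RBS* lesions and control eyes the median log2 difference of all genes was 0.17 as deposited, -0.01 with median centring, 0.00 after quantile normalization and 0.10 when samples were scaled to their totals with the 3 most abundant genes left out. For *RBS* lesions against Shh-MBs these medians were 0.53, -0.32, -0.10 and 0.18, and for Shh-MBs against control eyes -0.22, 0.44, 0.17 and 0.07. Against this shift, *Wif1*, *Dkk2*, *Sfrp2* and *Sfrp1* had the same direction between *RBS* lesions and control eyes under all 4 scalings and passed each time. *Wif1* (2.05 to 3.32), *Dkk2* and *Sfrp1* did so between *RBS* lesions and Shh-MBs.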

How the data were processed

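RNA of fresh-frozen tissue was measured on the nCounter Mouse PanCancer pathways panel. The authors compiled and normalized the counts with nSolver and nCounter Advanced Analysis. The deposited values are a linear normalized signal with a background subtracted. The background setting and the reference genes are not given in the sources used here, so whole counts were not recovered.

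The antagonists and all gene lists were chosen with earlier results of these data known. Groups were compared pairwise as log2 of the signal plus 1, first group minus second, over all 770 genes without a filter. Tests used limma 3.58.1 in R 4.3.3 (two-sided, eBayes, Benjamini-Hochberg over all genes, threshold 0.05). Folds are on this log2 scale and understate changes of weak genes. Steps were tested on simulated data. Python 3.11.15 with matplotlib 3.10.9 was used for plots.

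All antagonists, the beta-catenin targets and other secreted modulators on the panel were named, with the largest called rise or fall without overlap for ligands and some other lists, and the 3 nearest patterns of each antagonist with a mean log2 signal of at least log2 of 20. Alternatives were Welch's test of the methods without its permutations, adjusted by Benjamini-Hochberg or step-down Bonferroni, limma with trend and robust settings, all 12 samples in 1 fit, 3 other scalings, a pseudocount of 5, 2 treatments of values under 20, a block for the replicate number and leaving out each sample. Of 770 symbols, 760 matched the RefSeq table directly and 10 an older name. The human samples of the study were not analysed here. One gene of the marker lists is not reported here.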

Additional observations from a re-analysis of the deposited data

Results flagged for a closer look

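In 14 sets of 1 antagonist in 1 group of 4 or 5 samples, the gap of the highest or lowest sample to its neighbour was set against the range of the group on the log2 scale. Chance alone marks about 1 in 20 such sets. The lowest *Dkk4* value of the control eyes, in replicate 3, lay apart by 0.833 of the range, just above the critical value of 0.829 for 4 samples. It is a lowest value of that sample (1.06), and the other 3 control eyes were between 6.34 and 8.47. The highest *Sfrp1* value of the *RBS* lesions, in replicate 4, lay apart by 0.817 of the range, where the critical value for 5 samples is 0.710. It was 1301, and the other 4 *RBS* lesions were between 746 and 825.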

How the results depend on the processing

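Directions of *Wif1*, *Dkk2* and *Sfrp1* were kept in every alternative run in all 3 comparisons. Welch's test with step-down Bonferroni adjustment, without the permutations of the methods, called 72, 80 and 36 genes (394, 468 and 316 with limma) and 0, 1 and 0 antagonists for *RBS* lesions against control eyes, *RBS* lesions against Shh-MBs and Shh-MBs against control eyes. With Benjamini-Hochberg adjustment the same test called 347, 380 and 217 genes and 3, 4 and 4 antagonists. In Shh-MBs against control eyes, quantile normalization and setting values under 20 to 20 each left 3 of 5 antagonists called. Signs that turned were those of *Dkk4* against control eyes in *RBS* lesions (quantile -0.0190, replicate block -0.000557), of *Dkk1*, *Dkk4* and *Sfrp4* in *RBS* lesions against Shh-MBs with quantile normalization (-0.12, -0.0159 and -0.50), and in Shh-MBs against control eyes of *Sfrp2* with median centring (0.16) and of *Sfrp4* with median centring (0.63), quantile normalization (1.14), the total without the 3 most abundant genes (0.26) and values under 20 set to 20 (0.00189). Leaving out 1 sample moved *Dkk4* against control eyes between -0.31 and 0.60 and *Sfrp4* in Shh-MBs against control eyes between -0.33 and 0.17. The cause of these turns was not tested. The split of all called genes into higher and lower moved from 254 and 140 to 177 and 177 with median centring for *RBS* lesions against control eyes, from 370 and 98 to 181 and 319 against Shh-MBs, and from 74 and 242 to 311 and 139 for Shh-MBs against control eyes. *Dkk1* and *Dkk4* had no value once genes with a mean log2 signal under log2 of 20 were left out.

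Same-numbered samples did not clearly deviate together (correlations across genes of deviations from the group means between -0.15 and 0.19). No pairing by replicate number was seen, but with so few samples the check cannot exclude it. With the number as a replicate block, 301, 407 and 230 genes and 4, 4 and 4 antagonists were called. A sample whose number is missing from the other group adds nothing to a blocked difference. Such samples were *RBS* lesion 5 against control eyes, *RBS* lesions 4 and 5 against Shh-MBs, and control eye 4 in Shh-MBs against control eyes. Under the block, *Dkk1* passed as lower in *RBS* lesions against control eyes (-1.07, adjusted *p* = 0.0354, limma) and *Sfrp1* did not pass (-0.67, adjusted *p* = 0.0600, limma). Against Shh-MBs, *Dkk4* then passed as higher in *RBS* lesions (1.25, adjusted *p* = 0.0129, limma) and *Dkk1* did not (0.67, adjusted *p* = 0.0685, limma), and *Sfrp2* did not pass in Shh-MBs against control eyes (-0.42, adjusted *p* = 0.174, limma). Values under 20 may rest on few counts, which would limit *Dkk1*, *Dkk4* and *Sfrp4* most.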
